A study of Mus musculus with 12 samples.

Results

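The genes described are 5 that are read mainly in red cells and their precursors, the haemoglobin chain genes Hba-a1, Hba-a2, Hbb-bs and Hbb-bt and the erythroid haem synthesis gene Alas2. They are the rows of the deposited count table that carry these symbols, 5 of 45777 genes, and all 5 were among the 17885 genes with enough counts to be tested. They were compared over the groups of the study as a reading of the blood held in tumour pieces.

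Cells of 393P, a line of mouse lung cancer, had been injected subcutaneously into the flank of male 129S2/SvPasCrl mice aged 8 weeks. The 4 groups were MAVS reconstituted with the MPS1 inhibitor BAY-1217389, MAVS knockout with the inhibitor, MAVS reconstituted with control treatment, and MAVS knockout with control treatment, with 3 tumour libraries in each. MAVS is the mitochondrial adaptor through which cytosolic RNA sensors signal, and MPS1 is a kinase of the spindle checkpoint. The inhibitor was given at 5 mg/kg, 2 times daily over 2 days, and the tumours were collected on the day after. The host mice are not labelled as altered in any group, so the genotype is that of the injected cells, and any other difference between the injected populations cannot be told apart from it. Sample titles call the knockout cells Luc, a name that the labels do not explain. The samples are called replicates, and since separate animals are not stated, the p-values below measure the spread between these samples, which may be technical.

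Haemoglobin is a tetramer of alpha and beta chains, each with a haem group that binds oxygen, and its messenger RNAs are among the most abundant of reticulocytes, the young red cells that have lost their nucleus but still hold RNA. Mature red cells of mammals keep little RNA, so globin reads in a solid tissue come mostly from blood left in its vessels or spilled into it, or from erythroid precursors. Alas2 makes the first enzyme of haem synthesis in erythroid cells, while its relative Alas1 serves the other tissues. The embryonic globin genes of the same clusters are silent in adult red cells.

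In the GRCm38.p6 RefSeq annotation Hba-a1 (gene ID 15122) spans 32283672 to 32284486 on chromosome 11, plus strand, and Hba-a2 (gene ID 110257) spans 32296492 to 32297310 on the same strand, 12 kb further on. Hbb-bs (gene ID 100503605) spans 103826523 to 103827928 on chromosome 7, minus strand, and Hbb-bt (gene ID 101488143) spans 103812524 to 103813923, 12.6 kb away. Alas2 (gene ID 11656) lies on the X chromosome from 150547417 to 150570622, plus strand. The coding sequences of the alpha genes, 426 bases each, differed at 1 base, and those of the beta genes, 441 bases each, also at 1. Over their aligned transcripts the alpha genes were 99.81% identical and the beta genes 92.81%, with 45 bases different. The sources used here do not say how the authors' counting placed reads that match both copies, so the division between the copies of a chain is uncertain and the sum of both is the firmer value. The reference genome is that of C57BL/6J, and the globin alleles of the 129 strain of the hosts were not analysed here. The identities given are therefore those of the reference copies, and counts are of reads placed on them. The alpha and beta coding sequences were 63.2% identical, with no identical run above 14 bases.

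The 250 bases before the annotated starts of the genes are shown, from RefSeq and GRCm38.p6, 5′ to 3′ on the strand of the gene. Capitals mark every match to 4 motifs, which are GATAA (read by GATA factors), the CCAAT box, the CACCC box (read by Krüppel-like factors) and the TATAA box, each searched on both strands, so that their reverse complements are capitals too. Overlapping matches run together. Hba-a1 is chr11:32283422-32283671, Hbb-bs is chr7:103827929-103828178, Hbb-bt is chr7:103813924-103814173 and Alas2 is chrX:150547167-150547416.
Hba-a1: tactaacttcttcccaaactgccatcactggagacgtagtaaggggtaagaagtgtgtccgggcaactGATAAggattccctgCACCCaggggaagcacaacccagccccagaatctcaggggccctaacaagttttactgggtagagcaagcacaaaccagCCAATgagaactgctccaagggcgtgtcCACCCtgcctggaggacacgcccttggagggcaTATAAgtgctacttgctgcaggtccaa
Hbb-bs: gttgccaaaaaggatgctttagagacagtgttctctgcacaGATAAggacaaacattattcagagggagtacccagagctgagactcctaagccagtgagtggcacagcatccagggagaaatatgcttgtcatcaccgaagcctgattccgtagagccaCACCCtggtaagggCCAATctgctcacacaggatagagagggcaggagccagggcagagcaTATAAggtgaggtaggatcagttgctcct
Hbb-bt: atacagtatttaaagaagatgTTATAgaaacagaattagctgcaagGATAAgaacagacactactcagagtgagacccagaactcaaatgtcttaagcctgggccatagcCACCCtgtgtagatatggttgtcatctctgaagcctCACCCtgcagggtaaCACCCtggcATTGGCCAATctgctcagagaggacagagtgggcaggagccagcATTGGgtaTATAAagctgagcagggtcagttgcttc
Alas2: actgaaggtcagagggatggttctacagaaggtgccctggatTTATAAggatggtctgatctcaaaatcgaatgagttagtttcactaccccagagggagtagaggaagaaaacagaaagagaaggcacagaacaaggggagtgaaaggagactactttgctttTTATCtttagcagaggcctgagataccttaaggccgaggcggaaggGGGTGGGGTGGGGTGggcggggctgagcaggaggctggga

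The window of Hba-a2 (chr11:32296242-32296491) is not shown, since its 247 bases that align with those of Hba-a1 held 0 differences. The beta gene windows were 73.25% identical. All 4 globin windows held all 4 motifs, with GATAA 182 to 209 bases, CCAAT 75 to 91 bases and TATAA 27 to 30 bases before the start at the nearest match on the plus strand of the gene. Of 32851 promoter windows of the same length, 22.6% held GATAA, 33.8% CCAAT, 52% CACCC and 22.8% TATAA, and 318 (0.968%) held all 4. The Alas2 window held GATAA on its opposite strand, 86 bases before the start, 3 overlapping or adjoining CACCC matches on that strand within 40 bases of the start, and TATAA only 207 bases or more away. No CCAAT letters lie in the Alas2 window. These matches are letters in a sequence and not measured binding, and their relation to the levels of the genes in these libraries was not tested.

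The libraries held 52983715 to 69108411 counts each, and 3 counts, the floor below which a gene is not told from 0, corresponded to 0.0422 to 0.0593 CPM. CPM are counts relative to the library total after TMM scaling, with factors of 0.920 to 1.03. Mavs itself had 50.0, 53.8 and 62.8 CPM in reconstituted tumours under the inhibitor, 43.5, 39.4 and 41.0 in knockout tumours under the inhibitor, 85.0, 68.9 and 59.1 in reconstituted controls and 40.5, 42.5 and 45.7 in knockout controls. It was called higher in reconstituted tumours over both treatments (log2 difference 0.58 ± 0.09, SE, edgeR adjusted p = 0.0105), the direction of the labels, though knockout libraries kept Mavs reads. In a principal component analysis of all tested genes, replicate 1 of the reconstituted tumours under the inhibitor stood apart on the first component (28.5% of the variance). The same library had 2441 CPM summed over 9 skeletal muscle markers, against 1.45 to 745 in the other 11, so results on reconstituted tumours under the inhibitor are also given without it.

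The 4 globin genes together made up 0.00325% to 0.0290% of all counts, 31.97 to 290.8 CPM, a 9.10-fold range over the 12 libraries. The libraries with the 4 highest sums were all of knockout tumours, 2 under the inhibitor and 2 controls. Per kilobase of transcript, the mean level over the 12 libraries was 60.9 CPM per kb for Hbb-bs, 57.3 for Hba-a2, 54.3 for Hba-a1, 13.7 for Hbb-bt and 0.652 for Alas2. Per kilobase Hba-a2 lay above Hba-a1 in each of the 12 libraries, by a margin that rests on how reads of the 2 copies were divided. Hbb-bs lay above both alpha genes in all 6 knockout libraries and above, between or below them in the reconstituted ones, and Hbb-bt and Alas2 lay below all of these in every library. Raw counts behind these values ran from 118 to 5372 for the globin genes and from 23 to 197 for Alas2.

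**Figure D1:**
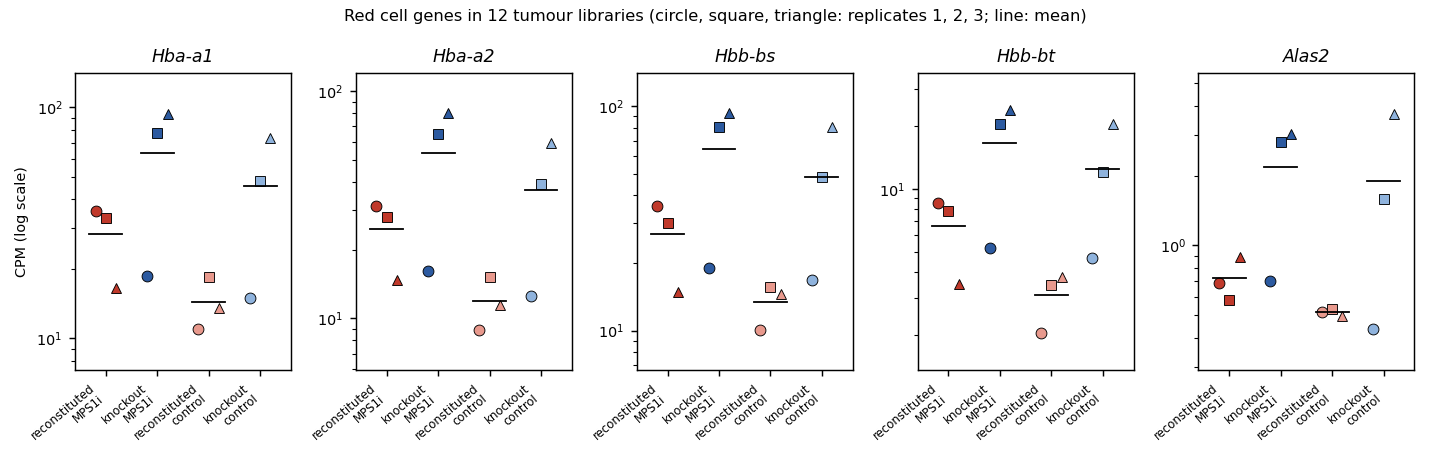
CPM (log axis, a scale of its own in each panel) of the 5 genes in each library, by group from reconstituted tumours under the MPS1 inhibitor on the left to knockout controls on the right. Circles, squares and triangles are replicates 1, 2 and 3, and lines are group means. In both knockout groups replicate 1 lies well below the other 2 libraries for every gene, while Alas2 in the 3 reconstituted controls lies within 0.499 to 0.534 CPM.

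Hba-a1, an adult alpha chain, had 35.7, 33.1 and 16.6 CPM in reconstituted tumours under the inhibitor (replicates 1, 2 and 3), against 18.7, 77.5 and 93.8 in knockout tumours under the inhibitor. In controls it had 10.98, 18.5 and 13.6 CPM in reconstituted tumours, against 14.98, 48.2 and 73.7 in knockout tumours. Under either treatment the groups overlapped, because replicate 1 of each knockout group fell among the reconstituted libraries while the other 2 knockout libraries lay above all of them. Means were 28.5 ± 10.4 CPM in reconstituted and 63.3 ± 39.5 in knockout tumours under the inhibitor, and 14.3 ± 3.83 in reconstituted and 45.6 ± 29.4 in knockout controls (SD, n = 3 each).

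Hba-a2, the other adult alpha gene, had 31.2, 27.8 and 14.8 CPM in reconstituted tumours under the inhibitor, against 16.1, 64.7 and 80.0 in knockout tumours under the inhibitor. In controls the values were 8.92, 15.3 and 11.5 CPM in reconstituted tumours and 12.5, 39.1 and 59.2 in knockout tumours. The libraries stood in nearly the same proportions as for Hba-a1 and overlapped in the same way. Across the 12 libraries the log2 CPM of the alpha genes had a Pearson r of 0.999, and how reads that match both copies were divided was not tested.

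Hbb-bs, an adult beta chain, had 36.0, 30.1 and 14.8 CPM in reconstituted tumours under the inhibitor, against 18.9, 80.4 and 93.2 in knockout tumours under the inhibitor. The controls had 10.03, 15.7 and 14.6 CPM in reconstituted tumours, against 16.7, 48.3 and 80.3 in knockout tumours. In controls every reconstituted library lay below every knockout library, though by a small gap at replicate 1 of the knockout, and under the inhibitor the groups overlapped. Means were 26.95 ± 10.9 CPM in reconstituted and 64.2 ± 39.7 in knockout tumours under the inhibitor, and 13.4 ± 3.001 in reconstituted and 48.4 ± 31.8 in knockout controls (SD, n = 3 each).

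Hbb-bt, the second adult beta chain gene of the reference genome, had 8.53, 7.82 and 3.50 CPM in reconstituted tumours under the inhibitor, against 5.22, 20.4 and 23.8 in knockout tumours under the inhibitor. Control values were 2.04, 3.47 and 3.802 CPM in reconstituted tumours and 4.68, 12.1 and 20.4 in knockout tumours. As with Hbb-bs, the control groups did not overlap and the inhibitor groups did.

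Alas2, the erythroid enzyme gene, had 0.691, 0.584 and 0.891 CPM in reconstituted tumours under the inhibitor, against 0.707, 2.79 and 3.02 in knockout tumours under the inhibitor. It had 0.520, 0.534 and 0.499 CPM in reconstituted controls, against 0.438, 1.58 and 3.67 in knockout controls. All 6 reconstituted libraries lay at or below 0.891 CPM, as did replicate 1 of both knockout groups, and the other 4 knockout libraries lay at 1.58 or above. The lowest knockout control was below all 3 reconstituted controls.

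Averaged over treatments, all 5 genes had lower fitted values in reconstituted than in knockout tumours, but none passed the test over all genes. The log2 difference, reconstituted minus knockout, was -1.41 ± 0.43 for Hba-a1 (SE, edgeR adjusted p = 0.141), -1.38 ± 0.42 for Hba-a2 (adjusted p = 0.144), -1.55 ± 0.43 for Hbb-bs (adjusted p = 0.114), -1.66 ± 0.43 for Hbb-bt (adjusted p = 0.0928) and -1.73 ± 0.47 for Alas2 (adjusted p = 0.107). Thus 0 of 5 were called at an adjusted p below 0.05, where 1.56% of all tested genes were called and 0.47% were called lower. The unadjusted p was below 0.05 for 5 of 5 genes (0.00266 to 0.00772), against 6.97% of all tested genes lower at that level, and the 5 are not independent, since they varied together. With limma-voom 0 of 5 were called, against 1.44% of all tested genes, and with DESeq2 3 of 5 were (Hbb-bs, Hbb-bt and Alas2), against 6.06% of the genes to which it gave an adjusted p. The median of the 5 differences was -1.55, against 0.00 over all tested genes, of which 1.66% had a log2 difference of -1 or less. The 95% intervals ran from -2.36 to -0.46 for Hba-a1 and from -2.76 to -0.69 for Alas2. In bulk tissue, fewer red cells or precursors and less RNA per cell cannot be told apart. The genotype groups overlapped for all 5 genes, where 0.783% of tested genes had every reconstituted library below every knockout library. The exact permutation test of mean log2 CPM, two-sided with genotypes permuted within treatments, gave p = 0.06 for Hba-a1, Hba-a2 and Alas2, 0.04 for Hbb-bs and 0.035 for Hbb-bt (smallest possible 0.005). Over the 10 such tests of both factors the adjusted p was 0.12 for each of the 5.

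**Figure D2:**
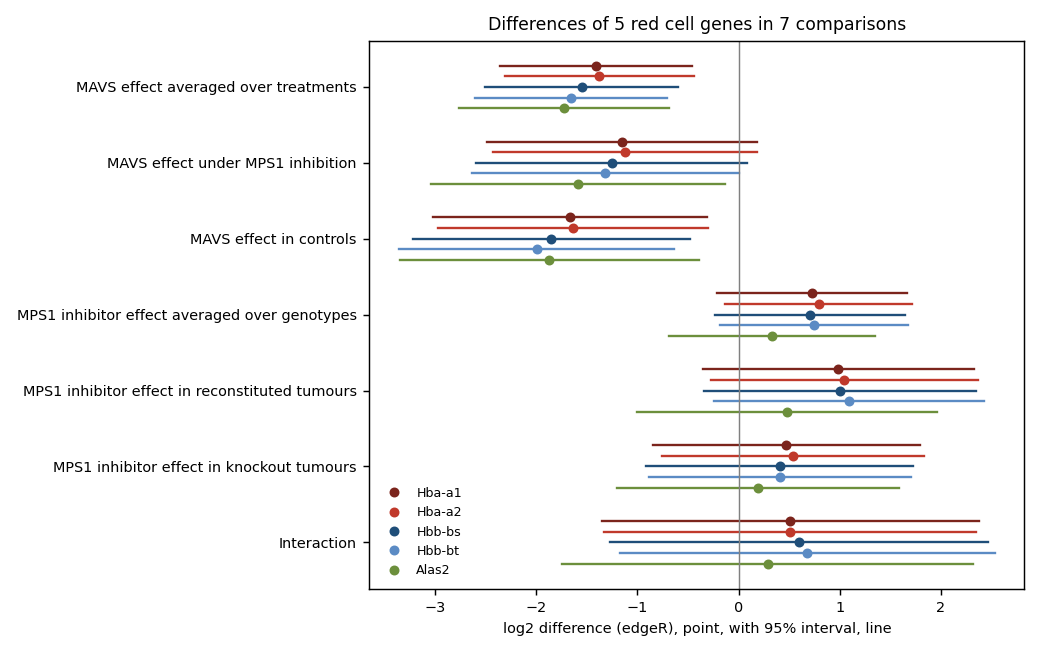
Log2 differences of the 5 genes in 7 comparisons (x axis, with MAVS effects as reconstituted minus knockout and inhibitor effects as MPS1 inhibitor minus control), as points with 95% intervals from edgeR. All MAVS effects lie below 0 and all inhibitor effects above it, and no point passed an adjusted p of 0.05.

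Under the MPS1 inhibitor the log2 differences between reconstituted and knockout tumours ran from -1.12 (Hba-a2, 95% interval -2.43 to 0.19) to -1.58 (Alas2, -3.04 to -0.13). By edgeR 0 of 5 genes were called, with 0.649% of all tested genes called, and the adjusted p ran from 0.223 to 0.310. Only Alas2 had an unadjusted p below 0.05 (0.0354), a level reached in either direction by 19.7% of all tested genes. DESeq2, which called 7.87% of genes, and limma-voom called 0 of 5. None of the 5 had groups without overlap, against 20.7% of tested genes. Without replicate 1 of the reconstituted tumours under the inhibitor, the library with the high muscle markers, 0 of 5 were called as well.

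In controls the differences were larger in size, from -1.63 (Hba-a2, 95% interval -2.97 to -0.30) to -1.99 (Hbb-bt, -3.35 to -0.64). Again edgeR called 0 of 5, with 0.14% of all tested genes called, at adjusted p-values of 0.179 to 0.207. All 5 had an unadjusted p below 0.05, where 9.89% of tested genes were lower at that level. DESeq2 called Hbb-bt (adjusted p = 0.0477), with 6.19% of genes called, and limma-voom called 0. Hbb-bs and Hbb-bt were the 2 of 5 without overlap between the groups, against 15.5% of all tested genes without overlap and lower. The spread among knockout controls was wide: the highest library had 8.39 times the Alas2 of the lowest, against 1.07 times among reconstituted controls.

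Treatment with the inhibitor gave positive differences for all 5 genes, none of which passed the test. Averaged over genotypes, the log2 difference, inhibitor minus control, was 0.73 ± 0.43 for Hba-a1 (SE, edgeR adjusted p = 0.522), 0.79 ± 0.42 for Hba-a2 (0.522), 0.70 ± 0.43 for Hbb-bs (0.525), 0.75 ± 0.42 for Hbb-bt (0.522) and 0.34 ± 0.46 for Alas2 (0.751). None of the 5 genes was called and none had an unadjusted p below 0.05. Across all tested genes 0% were called and 7.82% had an unadjusted p below 0.05. The exact permutation test within genotypes gave p from 0.17 (Hba-a2) to 0.435 (Alas2), adjusted 0.256 to 0.435 over the 10 tests.

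In reconstituted tumours the inhibitor difference was 0.99 ± 0.61 for Hba-a1, 1.05 ± 0.60 for Hba-a2, 1.00 ± 0.61 for Hbb-bs, 1.09 ± 0.61 for Hbb-bt and 0.48 ± 0.68 for Alas2 (SE). The adjusted p by edgeR ran from 0.232 to 0.650, with 0 of 5 called and 0% of all tested genes called, and 0 of 5 had an unadjusted p below 0.05, against 32.6% of all tested genes. Replicates 1, 2 and 3 under the inhibitor had 111.4, 98.9 and 49.7 CPM summed over the 4 globin genes, against 31.97, 53.0 and 43.4 in reconstituted controls, so that replicate 3 lay within the range of the controls. Alas2 was the 1 of 5 whose groups did not overlap, against 29.5% of all tested genes, with 0.584 to 0.891 CPM under the inhibitor and 0.499 to 0.534 CPM in controls. Without replicate 1 of the inhibitor group the median of the 5 differences was 0.79, against 1.00 with it.

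In knockout tumours the inhibitor differences were smaller, from 0.19 (Alas2, 95% interval -1.20 to 1.59) to 0.54 (Hba-a2, -0.76 to 1.83), and the groups overlapped for all 5 genes, where 8.73% of tested genes did not. Every adjusted p was 1 by edgeR, 0 of 5 genes and 0% of all tested genes were called, and 0 of 5 had an unadjusted p below 0.05, against 1.71% of all. The difference between the MAVS effects under the inhibitor and in controls, the interaction, ran from 0.29 ± 0.92 (Alas2) to 0.68 ± 0.84 (Hbb-bt) (SE), with edgeR adjusted p-values of 0.638 to 0.873. None was called, with 0% of all tested genes called, 0 of 5 had an unadjusted p below 0.05 against 24.7% of all, and the intervals spanned -1.74 to 2.53. DESeq2 and limma-voom also called 0 of 5 in each of the inhibitor comparisons and in the interaction. The spread of the 5 genes between libraries of a group was wide, with a biological coefficient of variation of 0.492 to 0.548 in edgeR's fit, against a median of 0.170 over the tested genes.

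The counted shares of the copies varied far less than their level, but the counting rule could fix a share between near-identical copies, so a steady share is no measure of the balance of the genes. Hba-a1 took 52.8% to 55.5% of alpha counts in the 12 libraries, and Hbb-bs took 78.1% to 83.1% of beta counts. The widest 95% Clopper-Pearson interval of the Hbb-bs share, which covers counting error only, was that of reconstituted control replicate 1, 80.1% to 85.8%. Per kilobase of transcript the mean shares were 48.5% for Hba-a1 and 81.8% for Hbb-bs. Alpha counts per beta count were 1.503, 1.61 and 1.72 in reconstituted tumours under the inhibitor, against 1.44, 1.41 and 1.48 in knockout tumours under the inhibitor. They were 1.65, 1.76 and 1.36 in reconstituted controls, against 1.28, 1.45 and 1.32 in knockout controls. Under the inhibitor the ratio was higher in each reconstituted library than in each knockout library. The gap was small, between 1.503 in reconstituted replicate 1, the library with the high muscle markers, and 1.48 in knockout replicate 3. In controls the groups overlapped, and no interval or test was made of the ratio.

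Alas2 counts per 1000 globin counts were 6.21, 5.91 and 17.9 in reconstituted tumours under the inhibitor, against 11.98, 11.5 and 10.4 in knockout tumours under the inhibitor. In controls they were 16.3, 10.1 and 11.5 in reconstituted tumours, against 8.95, 10.7 and 15.7 in knockout tumours. The groups thus overlapped on this ratio, with means of 11.3 ± 5.00 over the 6 reconstituted and 11.5 ± 2.30 over the 6 knockout libraries (SD). The lowest and the highest ratio both came from reconstituted tumours under the inhibitor, 5.91 (95% Clopper-Pearson interval 4.13 to 8.19) in replicate 2 and 17.9 (13.4 to 23.5) in replicate 3.

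**Figure D3:**
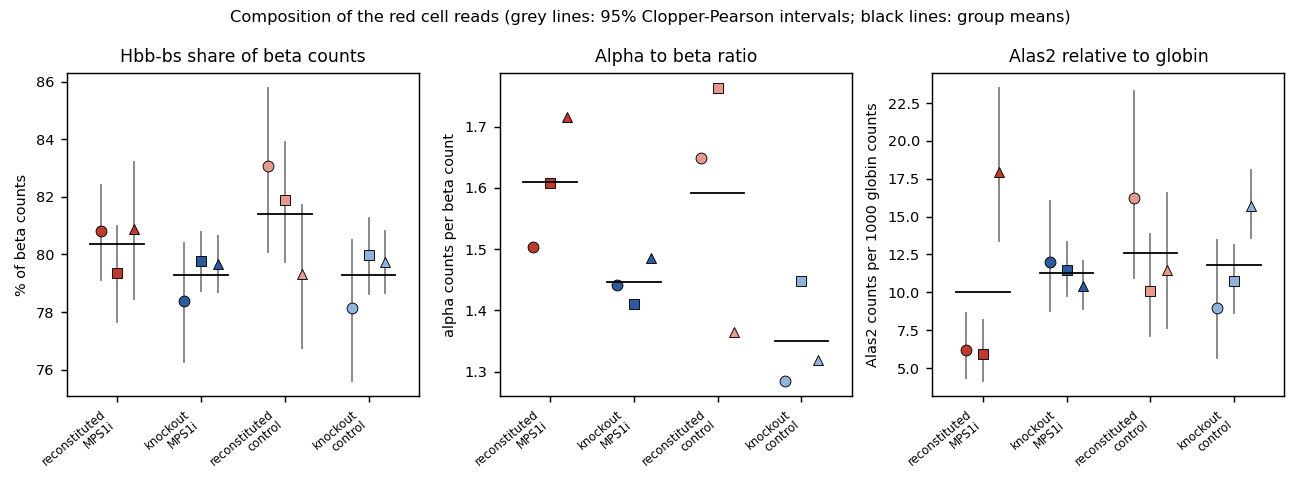
Share of Hbb-bs in beta counts (left), alpha counts per beta count (middle) and Alas2 counts per 1000 globin counts (right) in each library, with 95% Clopper-Pearson intervals in grey for the outer panels and group means as black lines; the axes do not start at 0. The Hbb-bs share stays within 78.1% to 83.1%, and the Alas2 ratio spreads from 5.91 to 17.9 within 1 group.

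The globin genes varied together across libraries, with Pearson r of log2 CPM between 0.981 and 0.999 for the 6 pairs. Alas2, which shares no near-identical sequence with them, had r of 0.883 to 0.902 with the 4 globin genes. For Alas2 and Hbb-bs over the 12 libraries, r was 0.902 (permutation p = 0.00018, adjusted 0.00162 over 9 relations) and Spearman's rho was 0.790 (permutation p = 0.00331, adjusted 0.0298). Without the 2 libraries farthest from the median of Hbb-bs r was 0.829. Within genotypes r was 0.271 over the 6 reconstituted and 0.982 over the 6 knockout libraries, so the relation rests on the knockout libraries, where both genes spanned a wider range. No relation with the summed markers of other cell types or processes passed adjustment over the 12 libraries. Their r with Hbb-bs was 0.400 for platelet, 0.485 for neutrophil, 0.117 for endothelial, 0.192 for fibroblast and pericyte and 0.0529 for skeletal muscle markers. It was 0.526 for hypoxia, 0.470 for haem clearance and -0.335 for red cell membrane genes, and the lowest adjusted permutation p of these 8 was 0.281 for r and 0.125 for rho. Within genotypes, as values with no test, r over the 6 reconstituted libraries was 0.934 for haem clearance, -0.929 for red cell membrane and 0.793 for hypoxia genes, and over the 6 knockout libraries it was 0.228, -0.391 and -0.0298 for the same lists. For the cell markers r ran from -0.650 (fibroblast and pericyte) to 0.459 (neutrophil) in reconstituted and from -0.315 (skeletal muscle) to 0.328 (neutrophil) in knockout libraries. Each genotype pools both treatments, so these values also carry the difference between treatments. With the group means taken out, r over the 12 libraries was 0.505 for haem clearance, -0.511 for red cell membrane and 0.213 for hypoxia genes. The reconstituted values include replicate 1 under the inhibitor, the library with the high muscle markers, and were not computed without it.

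**Figure D4:**
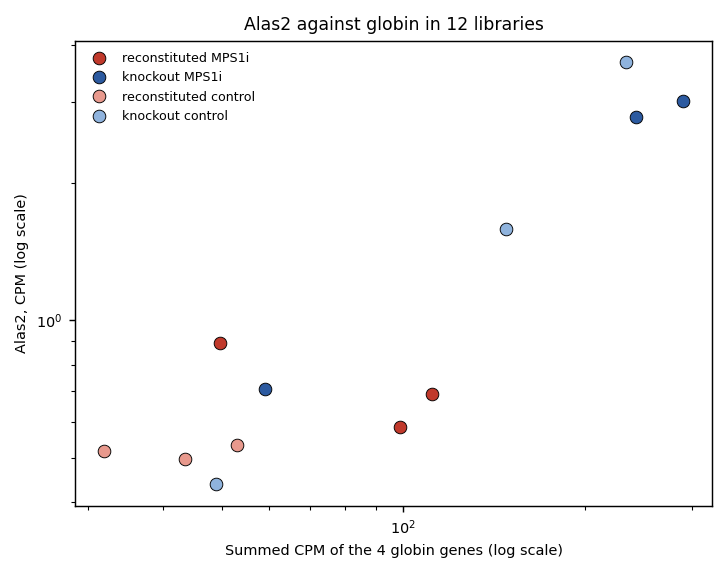
Alas2 CPM against the summed CPM of the 4 globin genes in each of the 12 libraries, both axes logarithmic, coloured by group. The 4 libraries at 1.58 CPM of Alas2 or above are knockout tumours and hold the 4 highest globin sums, and the 2 reconstituted tumours under the inhibitor with 98.9 and 111.4 CPM of globin have 0.584 and 0.691 CPM of Alas2.

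Other genes of the red cell lineage were then read from fixed lists. Of 9 other globin genes, the embryonic Hba-x, Hbb-y, Hbb-bh1 and Hbb-bh2 and the theta gene Hbq1b had 0 counts in all 12 libraries, which allows up to the floor of 0.0422 to 0.0593 CPM in each. The other 2 above 12 counts were not red cell genes, the cytoglobin gene Cygb and the muscle myoglobin gene Mb. Of 17 red cell membrane and skeleton genes, Epb42, Rhag and Kel were at 0 in all libraries, and the anion exchanger gene Slc4a1 had 0 to 6 counts. Among erythroid transcription factors Klf1 had 0 to 11 counts and Gata1 5 to 25. The late erythroid genes Car1 and Pklr, the erythropoietin gene Epo and the hepcidin gene Hamp were also at 0 in every library, and Ahsp was not analysed here. The defining membrane markers of erythroid precursors were thus at or near 0 in libraries that held up to 290.8 CPM of globin.

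In the MAVS effect averaged over treatments, 10 of 17 membrane and skeleton genes were tested, 5 with positive and 5 with negative differences, with a median of 0.03 and 0 called. Its most abundant members were Add2 (-0.05 ± 0.10), Aqp1 (-0.15 ± 0.12), Epb41 (0.07 ± 0.12) and Gypc (-0.40 ± 0.16), which other cells also express. The 12 haem synthesis genes, all tested, had a median of -0.02, with 0 called. The shared steps showed small differences, -0.01 ± 0.07 for Fech, which inserts the iron into haem, and 0.00 ± 0.07 for the mitochondrial iron importer Slc25a37. The 7 tested transcription factors had a median of 0.12 and the 12 tested late erythroid enzymes and chaperones 0.03, with 0 called in each. Over all tested genes the median was 0.00. Alas1, the housekeeping counterpart of Alas2 and named for that after its values were seen, had 0.46 ± 0.12 (SE, edgeR adjusted p = 0.0830), opposite in sign to Alas2. The 6 tested genes of erythropoietin and iron uptake had a median of -0.12. By edgeR 0 genes of these 5 lists were called in any of the 7 comparisons. In the averaged MAVS effect the unadjusted p was below 0.05 for 1 haem synthesis gene, 1 membrane gene, 2 late erythroid genes and 0 of the other 2 lists, against 15.1% of all tested genes. There limma-voom called 0, against 1.44% of all tested genes, and DESeq2 called Alas1 alone, against 6.06% of genes. In the other 6 comparisons DESeq2 called at most 3 genes of any of these lists. The 3 were late erythroid genes (Prdx2, Blvrb and Gpx1) in the inhibitor effect in reconstituted tumours, where it called 3668 genes in all.

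On the list of haemoglobin and haem clearance genes, which also holds genes of iron storage and export, 10 of 12 had negative MAVS differences over treatments. Their median was -0.21, where 49.9% of all tested genes were negative. These differences ran from -0.89 to 0.24. By treatment the list had 6 of 12 negative under the inhibitor, with a median of -0.06, and 10 of 12 in controls, with a median of -0.47. Under the inhibitor its 4 members of highest mean CPM went both ways. Fth1 had 0.51 ± 0.14 (SE, edgeR adjusted p = 0.111), Ftl1 0.30 ± 0.19, Lrp1 -0.25 ± 0.14 and Cd163 -0.44 ± 0.50. DESeq2 called Fth1 there, with 7.87% of genes called. In the averaged effect edgeR called 0, with 4 at an unadjusted p below 0.05 against 15.1% of all tested genes. There limma-voom called 0 and DESeq2 2 (Hmox1 and the iron exporter gene Slc40a1), with 6.06% of genes called by DESeq2. The ferritin light chain gene Ftl1 had -0.22 ± 0.14 and the haemoglobin scavenger receptor gene Cd163 -0.65 ± 0.36 (SE, edgeR adjusted p = 0.437). Haem oxygenase Hmox1, named after its values were seen, had -0.89 ± 0.25 (adjusted p = 0.112). Its levels were 53.6, 65.7 and 51.1 CPM in reconstituted against 49.9, 98.0 and 70.8 in knockout tumours under the inhibitor, and 42.6, 40.2 and 42.8 CPM in reconstituted controls against 99.1, 180.9 and 55.5 in knockout controls. The Hmox1 groups overlapped under the inhibitor and not in controls, where 15.5% of all tested genes were lower without overlap.

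Markers of other cells carried in blood and of the tumour's own tissues are given beside the red cell genes, and their part in the result was not tested. Of 8 platelet markers tested, 6 had negative MAVS differences over treatments, with a median of -0.31, and the summed level was 37.5 to 84.3 CPM in reconstituted and 45.9 to 93.1 in knockout tumours under the inhibitor. In controls the platelet sum was 35.1 to 51.9 CPM in reconstituted and 50.6 to 144.7 in knockout tumours. Pf4, the platelet factor 4 gene, which made up most of that sum, had -0.76 ± 0.29 (edgeR adjusted p = 0.240), and the platelet glycoprotein gene Gp9 was at 0 in all libraries. Neutrophil markers had a median of -0.29 (7 of 10 tested negative), endothelial markers -0.12 (11 of 12 negative), and fibroblast and pericyte markers -0.63 (8 of 9 negative). Macrophage markers had a median of 0.00 over treatments, with 8 of 9 positive and a median of 0.33 under the inhibitor and 8 of 9 negative and a median of -0.24 in controls. The interaction of the macrophage markers was positive for 9 of 9, with a median of 0.43 and 0 called by edgeR. Neutrophil medians were 0.05 under the inhibitor and -0.58 in controls, and platelet medians were -0.16 under the inhibitor and -0.69 in controls. Endothelial medians were -0.32 under the inhibitor (9 of 12 negative) and -0.10 in controls (8 of 12 negative). Fibroblast and pericyte medians were -0.67 under the inhibitor and -0.52 in controls. Among endothelial markers DESeq2 called Cdh5 and Tek under the inhibitor, with 7.87% of genes called, and 0 in controls, with 6.19% called. Over treatments the medians were 0.11 for the 3 tested B cell markers, 0.46 for T cell markers and 1.21 for skeletal muscle markers. By edgeR 0 genes of these 8 lists were called in the averaged MAVS effect, with 1 to 4 of each list, which have 3 to 12 tested members, at an unadjusted p below 0.05, against 15.1% of all tested genes. Limma-voom called Pax5 among B cell markers, with 1.44% of all tested genes called. DESeq2 called Vwf among endothelial and Fcgr1 among macrophage markers, with 6.06% of genes called.

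Of the genes induced by low oxygen, 10 of 10 had negative MAVS differences over treatments, with a median of -0.50, where 49.9% of all tested genes were negative. By treatment 4 of 10 were negative under the inhibitor, with a median of 0.09, and 10 of 10 in controls, with a median of -1.06. In controls edgeR called 0 of 10, and 10 of 10 had an unadjusted p below 0.05, against 9.89% of tested genes lower at that level. DESeq2 called 7 of 10 in controls, with 6.19% of genes called, and limma-voom called 0. In the averaged effect 1 was called, Egln3, an oxygen-sensing prolyl hydroxylase, at -1.59 ± 0.34 (SE, edgeR adjusted p = 0.0432). Limma-voom called 0 of the 10 and DESeq2 3 (Car9, Egln3 and Slc2a1). Over all genes edgeR called 1.56%, limma-voom 1.44% and DESeq2 6.06%. Egln3 had 7.23, 4.07 and 5.43 CPM in reconstituted and 5.91, 12.8 and 8.45 in knockout tumours under the inhibitor. In controls Egln3 had 3.43, 2.98 and 2.51 CPM in reconstituted and 11.1, 31.1 and 7.47 in knockout tumours. The highest Egln3 library was knockout control replicate 2, which was not the highest for haemoglobin. The summed hypoxia genes were 1587 to 1769 CPM in reconstituted controls, against 2195 to 2904 in knockout controls, without overlap. Under the inhibitor they were 2124 to 3029 CPM in reconstituted and 2009 to 2419 in knockout tumours, which overlapped. Of 6 tested epithelial tumour cell markers, edgeR called 2 lower in reconstituted tumours over treatments, against 0.47% of all tested genes. These were the adhesion genes Epcam (-0.35 ± 0.07, adjusted p = 0.0310) and Cldn4 (-0.57 ± 0.11, adjusted p = 0.0285), which DESeq2 and limma-voom also called. The keratin genes Krt8 and Krt18 had -0.06 ± 0.08 and -0.07 ± 0.10.

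**Figure D5:**
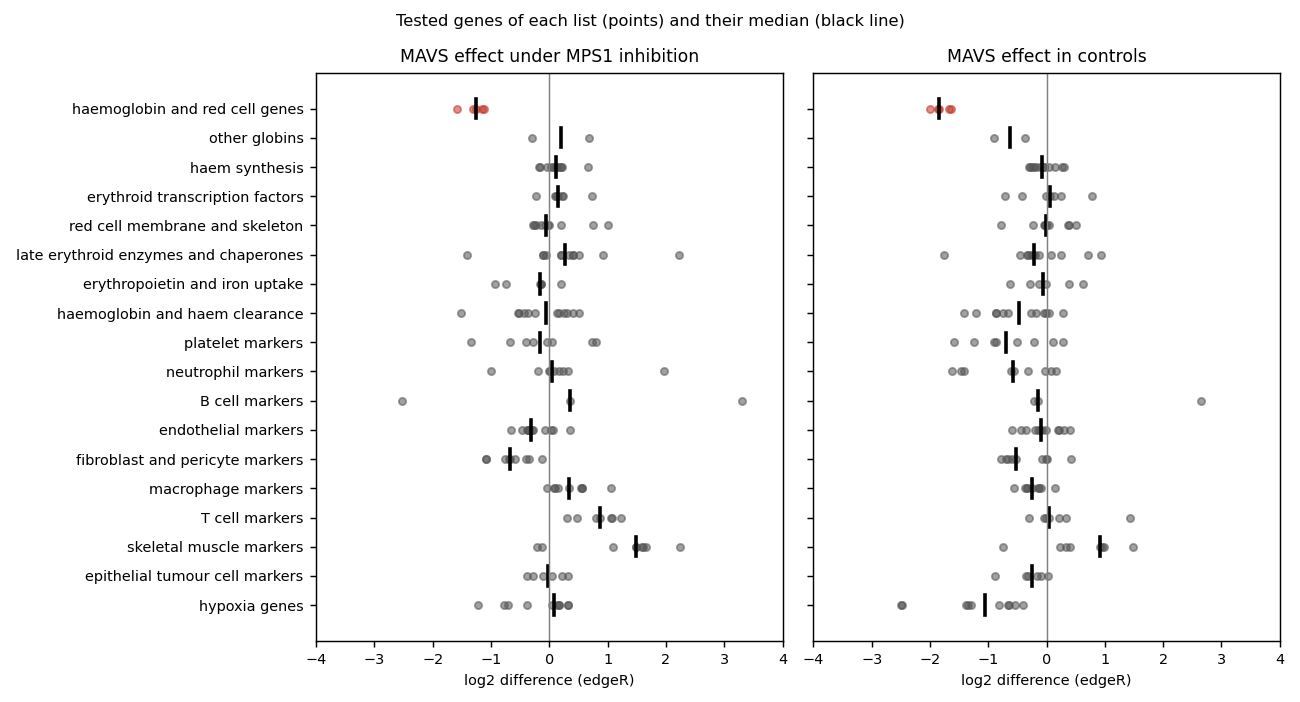
Log2 differences, reconstituted minus knockout, of the tested genes of each list (points) with the list median (black line), under the MPS1 inhibitor on the left and in controls on the right; 1 gene on the left and 2 on the right lie beyond the axis limit of 4. The 5 red cell genes lie together at medians of -1.25 and -1.85, while the lists of membrane, haem synthesis and transcription factor genes lie around 0.

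The genes whose log2 CPM were most like the mean of the 5 over the 12 libraries were looked up among 13375 tested genes, those averaging a log2 CPM under -1 and predicted genes being left out. Epcam came first with r = 0.879, followed by Arl16 (0.826), Gpbp1l1 (0.822), Armc10 (0.818) and Plin3 (0.791). The next 10 were Rassf1, Clec4n, Rdh10, Abhd4, Caap1, Dbndd1, Gdpd1, Aktip, Ropn1l and Ramac, the last with 0.761. None of these 15 is a red cell gene of the lists above. The most opposite were Armh3 (-0.828), Lmntd2 (-0.827) and Cdc7 (-0.812). Epcam had 147.1, 142.3 and 127.9 CPM in reconstituted and 159.7, 192.4 and 193.2 in knockout tumours under the inhibitor. In controls Epcam had 135.9, 146.6 and 136.0 CPM in reconstituted and 158.3, 173.5 and 189.0 in knockout tumours, so that all 6 knockout libraries lay above all 6 reconstituted ones, over a far narrower range than haemoglobin. Its r within groups was 0.950, and replicate 1 of each knockout group was the lowest of its group for Epcam as well. The correlations are across 12 libraries that share the group differences, and the genes were picked as the highest of many, so they are a description.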

How the data were processed

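RNA was measured in 12 tumour libraries. Stranded libraries were made from polyadenylated RNA, per the labels' protocols. The submitters' processing notes name Trimmomatic, HISAT2 and StringTie and the builds GRCm38 and mm10, with no versions. The table the authors deposited gives counts for each gene as whole numbers, with library sums that differ as raw counts do. Neither the labels nor the notes say whether strand was used or how shared reads and read pairs were treated.

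Groups came from the labels. All 12 libraries entered 1 edgeR 4.0.16 model (R 4.3.3) with a mean per group, TMM factors and the filterByExpr filter, tested by quasi-likelihood F-tests with Benjamini-Hochberg adjustment over 17885 genes and called below 0.05. Alternatives used DESeq2 1.42.0, limma-voom (limma 3.58.1), other scaling, filters and library sets. The fit was tested on simulated data. Log2 CPM with a prior count of 2 were used for pairwise correlations among the described genes and for likeness to their mean. The permutation tests of means and the tested correlations of Hbb-bs with Alas2 and the summed lists used log2 CPM without a prior count. Correlation p-values came from 100000 permutations. Levels per kilobase used the length of 1 GENCODE transcript per gene. Replicate pairs within a group differed beyond sampling noise (chi-square per gene at least 31.5).

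The 5 genes and 17 lists (181 genes, 180 in the table) were chosen with earlier results of these data known. Named from a list were called members, otherwise up to 4 of the highest mean CPM, and genes at or near 0, together with the 15 genes most like the 5 and the 3 most unlike.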

Additional observations from a re-analysis of the deposited data

How the results depend on the processing

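The 7 medians of the 5 genes moved by less than the replicate SD, 0.906 on the log2 scale, under all 21 alternatives. That SD exceeds the medians of the averaged inhibitor effect (0.73), the inhibitor effect in knockout tumours (0.41) and the interaction (0.51). For these it cannot show that a median held steady. The number of the 5 called, 0 in each comparison, became 3 with DESeq2 for the MAVS effect averaged over treatments (Hbb-bs -1.56, adjusted p = 0.0262; Hbb-bt -1.66, adjusted p = 0.0134; Alas2 -1.73, adjusted p = 0.00682) and 1 in controls (Hbb-bt -2.002, adjusted p = 0.0477). Leaving out 1 library at a time gave 0 to 1 called for the averaged effect, the 1 being Alas2 without knockout control replicate 1 (-1.96, adjusted p = 0.0424, against 0.0424 to 0.220 over those fits), and 0 in the other comparisons. The cause was not tested.

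Over those 12 fits the median of the 5 ran from -1.77 to -1.27 for the averaged MAVS effect, -1.69 to -0.88 under the inhibitor and -2.26 to -1.14 in controls. For the inhibitor it ran from 0.52 to 0.99 over genotypes, 0.79 to 1.29 in reconstituted and 0.02 to 1.00 in knockout tumours, and for the interaction from -0.01 to 0.93. Direction turned only in such fits: the inhibitor effect in knockout tumours ran from -0.00205 to 0.98 for Hbb-bs and -0.28 to 1.10 for Alas2, and the interaction from -0.0200 to 0.93 for Hba-a1, -0.0103 to 0.92 for Hba-a2 and -0.62 to 0.75 for Alas2. The lowest of these inhibitor values came without knockout control replicate 1 and the lowest of the interaction without knockout control replicate 3. Without that replicate 3, Alas2 in controls was -0.97, against -1.87 with it.

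Whether equal replicate numbers pair the libraries was checked by the correlation of their deviations from group means, which ran from -0.113 to 0.308. Of 6 pairs of groups 1 had all 3 correlations above 0.1, knockout tumours under the inhibitor with reconstituted controls, a pair no comparison sets against each other, and 6 of 12 libraries correlated best with one of their own number. The numbers were therefore not taken to pair the libraries, although replicate 1 had the highest muscle markers in 4 of 4 groups and the lowest summed globin in 3 of 4. With the replicate number as a block the averaged MAVS median was -1.30, 0 of the 5 were called in every comparison, and the genes called were 43 under the inhibitor and 15 in controls. Without a block 279 genes were called in the averaged MAVS effect, 116 under the inhibitor and 25 in controls, and 0 in the inhibitor effects and the interaction. With DESeq2 these were 1020, 1243 and 827 for the MAVS effects, 1 for the averaged inhibitor effect, 3668 in reconstituted and 3 in knockout tumours, and 1365 for the interaction. With limma-voom 15 genes were called in controls and 1 for the inhibitor in knockout tumours, and with only the 6 libraries compared 64 under the inhibitor, 10 in controls and 1 for the inhibitor in reconstituted tumours. Over the fits without 1 library they were 115 to 331, 0 to 2816 and 0 to 80 for the MAVS effects, 0 to 3, 0 to 5683 and 0 to 0 for the inhibitor and 0 to 4005 for the interaction, the upper values mostly without replicate 3 of the reconstituted tumours under the inhibitor. With both extreme libraries of the first component left out (reconstituted replicate 1 under the inhibitor and reconstituted control replicate 2, chosen after seeing the data), 170 were called in the averaged MAVS effect and 23 under the inhibitor.

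Depth limits mainly Alas2, at 23 to 197 counts, and the lineage genes at 0. For the globin genes the spread between libraries exceeds counting error, and 3 libraries a group limit the tests.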
